A study of Arabidopsis thaliana with 12 samples.

Results

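Ribosomes, protein translocases, chaperonins and Clp-type unfoldases act at different steps in the life of organelle proteins. Here 5 genes of these steps were followed in plants given proline. They were the plastid ribosomal protein genes AT5G65220 and AT3G54210, the translocase gene SECE1 (AT4G14870), the chaperonin gene Cpn60beta4 (AT1G26230) and the ClpX-like gene AT5G49840. Members were taken as genes named alone on a feature (a spot of the array) in GEO's platform annotation. Each of the 5 lay on a single such feature, among 692 features with 1 gene and 3439 features in all, and none was also listed on a feature with several genes. The genes were chosen by name after their response in these arrays (the log2 change, proline over water, and its adjusted p) was known, so that response is given below as a description, without p-values, and supports nothing further.

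The samples were Arabidopsis thaliana plants of the wild type, ecotype Wassilevskija. In 6 samples the plants had been given 100 mM proline for 3 h, a dose that per the labels was meant to raise cellular proline to a toxic level, and in 6 samples they had been given water. The labels of the water samples themselves give no time, so time and proline cannot be told apart from them, and plant part, age and growth conditions were not given. Total RNA was measured on 12 arrays as a relative intensity that ran from 0 to a ceiling of 100. Nothing in the labels says that replicates came from separate plants, so spreads and p-values describe these samples and may be technical.

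Plastids and mitochondria keep a protein synthesis machinery of bacterial type, but most of their proteins, including many of their ribosomal proteins, are encoded in the nucleus and imported. Inside the plastid a Sec translocase moves a share of the proteins into or across the thylakoid membrane, and a chaperonin encloses newly made or imported chains while they fold. Clp systems unfold and degrade proteins: a ClpX-type ATPase recognises a protein, unfolds it and feeds it to a proteolytic chamber, and in plants ClpX proteins are known from mitochondria. Proline accumulates in many plants under drought and salt and is harmful when supplied in excess.

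The 5 genes did not move together. The ClpX-like gene and the ribosomal protein gene AT5G65220 were several-fold higher after proline, the second ribosomal protein gene and SECE1 were lower, and Cpn60beta4 was lower by about as much as it varied between samples. In the fit over all tested features (limma, Benjamini-Hochberg adjusted p under 0.05), 4 of the 5 were past the threshold, 2 higher and 2 lower, in a series where 44.1% of the 2861 tested features were past it (18.3% higher and 25.9% lower). Since this contrast was used to choose the genes, nothing is read from that count. In whole-plant or tissue RNA, fewer cells of a type and less RNA per cell cannot be told apart.

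**Figure D1:**
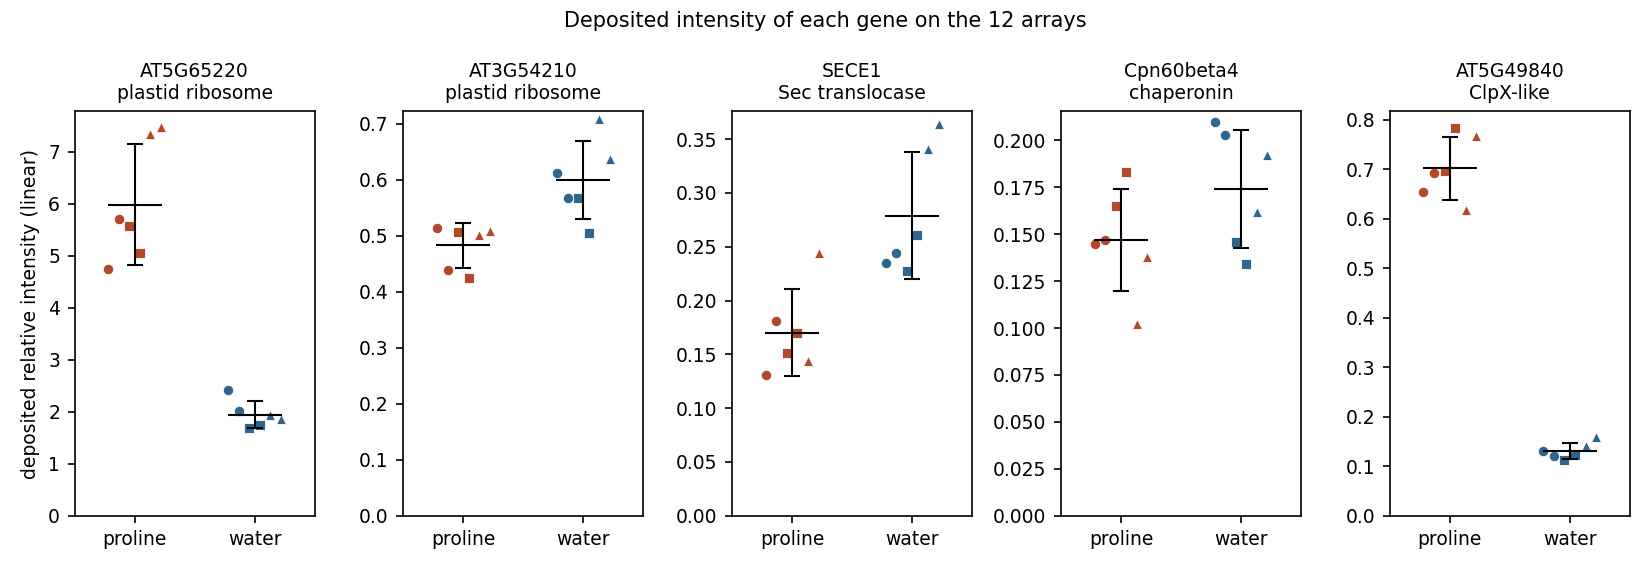
Deposited relative intensity (linear axis from 0, a scale for each gene) of the 5 genes on the 6 arrays of proline-treated and the 6 of water-treated plants. Circles, squares and triangles mark replicates 1 and 2, 3 and 4, and 5 and 6, and black bars the mean ± SD. Proline and water samples lie apart for AT5G65220 (lowest 4.74 against highest 2.42) and AT5G49840 (0.618 against 0.158), and overlap for the other 3 genes.

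The first step, protein synthesis, was represented by AT5G65220 and AT3G54210, both coding for proteins of the plastid ribosome. AT5G65220 had deposited intensities of 4.74, 5.70, 5.56, 5.05, 7.34 and 7.48 in proline replicates 1 to 6, against 2.42, 2.01, 1.68, 1.75, 1.94 and 1.86 in water replicates 1 to 6. All proline samples lay above all water samples, and the lowest of them was 1.96 times the highest water sample. The mean intensity was 5.98 ± 1.16 after proline and 1.94 ± 0.263 in water (SD, n = 6 each), and on the normalized log2 scale the change was 1.46 ± 0.13 SE, which is 2.75-fold (95% interval 2.24 to 3.36). Of the 576 named genes that could be tested, 28 had a more positive change.

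The change of AT5G65220 differed between successive replicates. Averaged over replicates 1 and 2 it was 2.09-fold higher after proline, over replicates 3 and 4 it was 2.76-fold higher, and over replicates 5 and 6 it was 3.58-fold higher. Both ends contributed, because water replicate 1 was the highest of the water samples and proline replicates 5 and 6 were the highest of the proline samples. Without replicates 5 and 6 of both groups the log2 change was 1.28, and without replicates 1 and 2 it was 1.65. Whether these replicates differ by plant or by array was not tested.

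AT3G54210 went the other way by a smaller amount. Its deposited intensity ranged from 0.425 to 0.514 with a median of 0.505 after proline, against 0.505 to 0.708 with a median of 0.589 in water. On this scale the groups touched, with water replicate 4, at 0.505, below proline replicates 1, 3 and 6. After normalization they lay apart by 0.33 on the log2 scale. The mean intensity was 0.483 ± 0.0397 after proline and 0.600 ± 0.0700 in water (SD, n = 6 each), and the normalized log2 change was -0.65 ± 0.091 SE, which is 1.57-fold lower (95% interval 1.37 to 1.81).

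The size of this fall depended on the scaling. In the values as deposited the log2 change of AT3G54210 was -0.31, after median scaling -0.51 and after cyclic loess -0.59. The change of the median feature moved as well, and was 0.057 as deposited and -0.118 after quantile normalization. Relative to that median, AT3G54210 had a log2 change of -0.37 as deposited and of -0.54 after quantile normalization. Its SD within groups, 0.13 on the log2 scale, was the smallest of the 5 genes. Of the 2674 features above 0 on all 12 arrays, 4.94% had a smaller one, and the median feature had an SD of 0.27.

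The 2 ribosomal protein genes can also be set against each other on each array, where their ratio cancels any factor common to the array. The log2 ratio of AT5G65220 to AT3G54210 ran from 3.20 to 3.88 with a median of 3.64 after proline, against 1.45 to 1.98 with a median of 1.68 in water. No proline array overlapped a water array. The ratio of the deposited values shifted by 1.92 on the log2 scale, or 3.78-fold, which like the changes themselves is a description of genes chosen by this contrast. The height of the ratio itself has no meaning, since intensities of different features are not comparable.

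**Figure D2:**
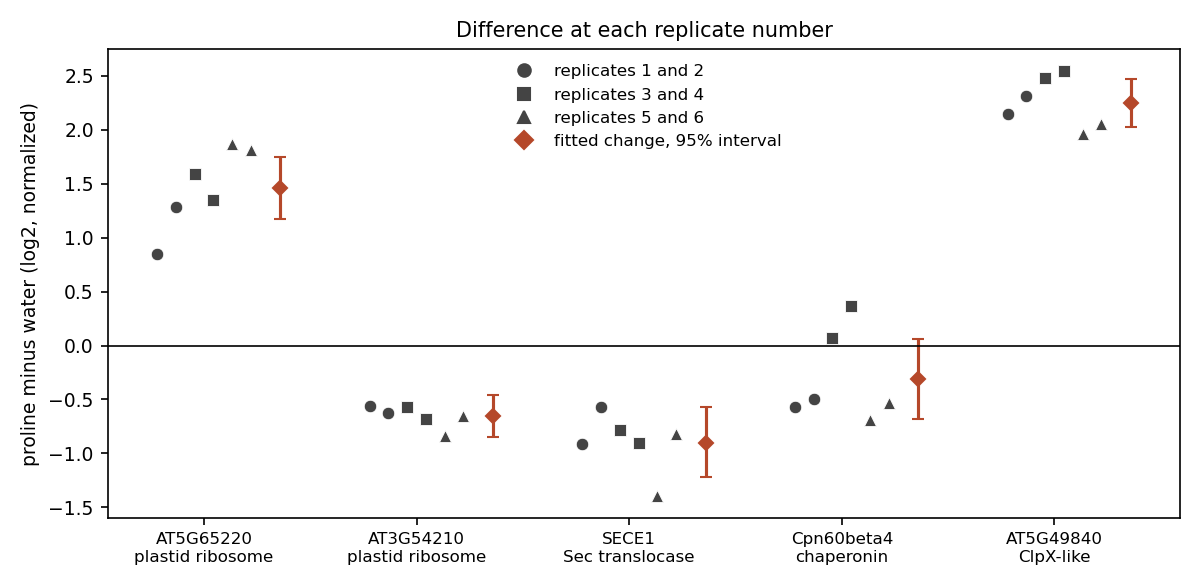
Normalized log2 intensity after proline minus that in water at each of the 6 replicate numbers, for the 5 genes. Grey symbols are single numbers, with shapes for replicates 1 and 2, 3 and 4, and 5 and 6, and red diamonds are the fitted change with its 95% interval. All 6 differences have 1 sign for every gene but Cpn60beta4, whose numbers 3 and 4 lie at 0.07 and 0.37 and the other 4 between -0.69 and -0.50.

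SECE1, which codes for a small subunit of the plastid Sec translocase, represented transport. Its deposited intensity ran from 0.131 to 0.244 with a median of 0.161 after proline, against 0.227 to 0.364 with a median of 0.253 in water. Proline replicate 6, at 0.244, lay above water replicates 1 and 3 and level with water replicate 2, and the other 5 proline samples lay below all water samples. The mean was 0.170 ± 0.0404 after proline and 0.279 ± 0.0589 in water (SD, n = 6 each). The normalized log2 change was -0.90 ± 0.15 SE, or 1.86-fold lower (95% interval 1.49 to 2.33).

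Water replicates 5 and 6 were the highest SECE1 samples of all, at 0.341 and 0.364. The fall averaged 2.16-fold over replicates 5 and 6, against 1.67-fold over 1 and 2 and 1.79-fold over 3 and 4. At single replicate numbers the log2 difference ran from -1.40 at number 5 to -0.57 at number 2. The median intensity of a whole array was between 0.171 and 0.200, so the proline values of SECE1 lay around that median and its water values above it. No measure of signal against background was used here. With 0.1 added to each intensity before the logarithm, which damps changes at low intensity, its log2 change was -0.61.

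Cpn60beta4, a beta-type subunit of the plastid chaperonin that in Arabidopsis is known for folding a subunit of the chloroplast NADH dehydrogenase-like complex, represented folding. Its deposited intensity ran from 0.102 to 0.183 with a median of 0.146 after proline, against 0.134 to 0.210 with a median of 0.177 in water, and the groups overlapped. The mean was 0.147 ± 0.0273 after proline and 0.174 ± 0.0315 in water (SD, n = 6 each). The normalized log2 change was -0.31 ± 0.17 SE, with a 95% interval from -0.68 to 0.06, which covers no change as well as a 1.60-fold fall.

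The replicates of Cpn60beta4 split by successive numbers. In replicates 1 and 2 the normalized level was 1.45-fold lower after proline, and in replicates 5 and 6 it was 1.53-fold lower, but in replicates 3 and 4 it was 1.17-fold higher. Proline replicates 3 and 4, at 0.165 and 0.183, were the highest of the proline samples, while water replicates 3 and 4, at 0.146 and 0.134, were the lowest of the water samples. Its pair averages had an SD of 0.30 within groups on the log2 scale, against 0.17 between the members of a pair. With replicates 3 and 4 left out of each group the log2 change was -0.58, and after median scaling it was -0.45. These are the settings among 29 under which Cpn60beta4 passed the threshold of the fit over all features.

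AT5G49840, the ClpX-like gene, represented turnover and had the largest change of the 5. It had deposited intensities of 0.654, 0.692, 0.697, 0.783, 0.618 and 0.767 in proline replicates 1 to 6, against 0.130, 0.121, 0.112, 0.122, 0.141 and 0.158 in water replicates 1 to 6. The lowest proline sample was 3.91 times the highest water sample. The mean was 0.702 ± 0.0635 after proline and 0.131 ± 0.0165 in water (SD, n = 6 each), and the normalized log2 change was 2.25 ± 0.10 SE, or 4.76-fold (95% interval 4.08 to 5.55). Of all 2861 tested features, 40 had a more positive change. All water values lay below the median intensity of their arrays, and with 0.1 added to each intensity before the logarithm the log2 change was 1.65.

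In proportion to its mean this gene varied little between samples, with a coefficient of variation of 9.05% after proline and 12.7% in water. The change was 4.70-fold over replicates 1 and 2, 5.71-fold over 3 and 4 and 4.01-fold over 5 and 6. It was thus largest in replicates 3 and 4, whereas AT5G65220, AT3G54210 and SECE1 all had their largest change in replicates 5 and 6. No test of this difference between replicates was made. The normalized change was 14.7 times the SD within groups for AT5G49840, against 6.43 for AT5G65220, 5.13 for AT3G54210, 3.48 for SECE1 and 1.03 for Cpn60beta4.

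Set side by side on the same arrays, the ClpX-like gene parted from SECE1, Cpn60beta4 and AT3G54210. The log2 ratio of SECE1 to AT5G49840 ran from -2.32 to -1.65 after proline, against 0.85 to 1.28 in water, a shift of -3.14. That of Cpn60beta4 to AT5G49840 shifted by -2.68, and that of AT3G54210 to AT5G49840 by -2.74, in each case with no overlap between the groups. The ratio of AT5G65220 to AT5G49840 shifted by -0.82 and its ranges met, from 2.69 to 3.57 after proline and from 3.55 to 4.22 in water. Among SECE1, Cpn60beta4 and AT3G54210 the ratios overlapped between the groups: AT3G54210 to SECE1 shifted by 0.41, SECE1 to Cpn60beta4 by -0.46 and AT3G54210 to Cpn60beta4 by -0.06.

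Counted by sample, the groups did not overlap in the deposited values for 2 of the 5 genes, against 25.7% of the 2674 features above 0 on all arrays, and in the normalized values for 4, against 27.5%. At all 6 replicate numbers the sign was the same for 4 of the 5, against 46.6% of those features. With successive replicates of a group averaged (3 values a group), 4 of the 5 genes were past the threshold (23.1% of all tested features). After median scaling all 5 were (46.0%). All these counts rest on the contrast by which the genes were chosen, so nothing is read from them.

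**Figure D3:**
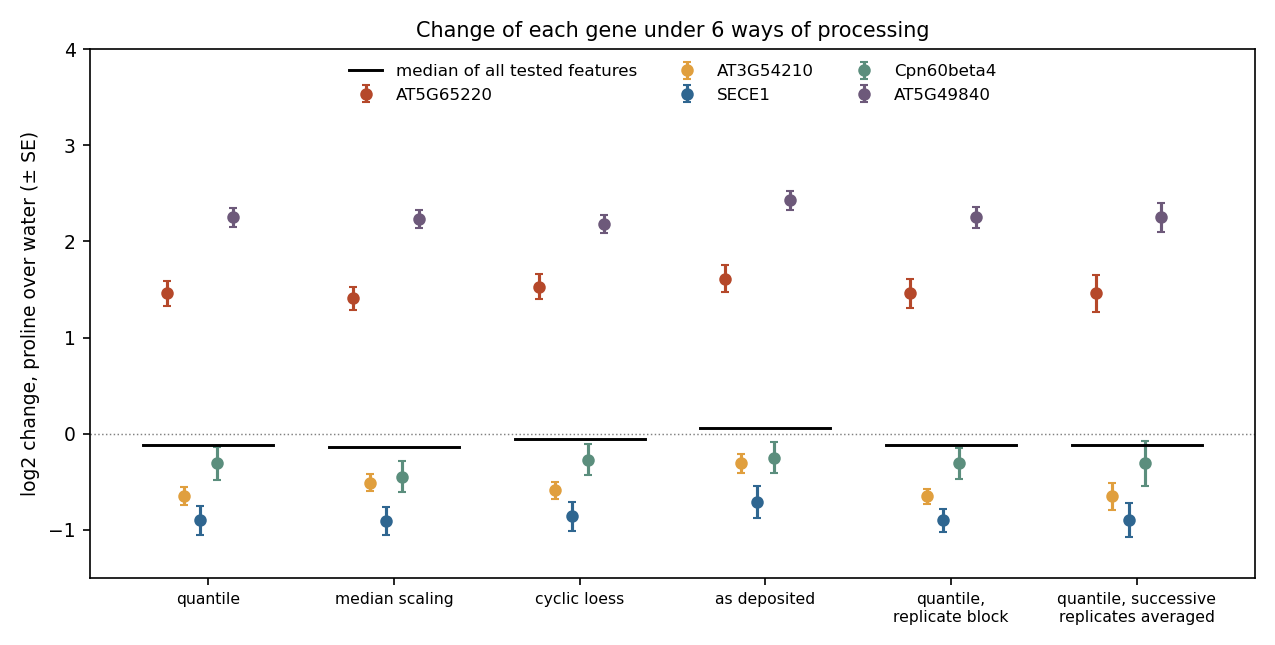
Log2 change (proline over water, ± SE) of the 5 genes under 4 scalings of the arrays, with the replicate number as a block, and with successive replicates averaged. Black lines mark the median of all tested features, from -0.139 after median scaling to 0.057 as deposited. The order of the 5 genes is the same in all 6, with AT5G49840 highest and SECE1 lowest.

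To see whether other genes of these steps moved alike, 156 loci known for plastid ribosomal proteins, organelle translation factors, import and thylakoid translocation, organelle chaperones and organelle proteases were listed from background knowledge. The gene table held no descriptions against which these lists could be checked. Earlier results of these data were known when the lists were written, so the values of their genes are a description as well. Of the 156, 15 had a feature of their own, the 5 genes above and 10 others, and 6 of the others could be tested. Of these 6, 1 rose and 1 fell, and 4 did not pass (limma with Benjamini-Hochberg adjustment over all tested features). This compares with 44.1% of all features. The genes that rose and fell were both from the protease list, and whether they code for proteases themselves was not checked. No gene of the list of translation factors had a feature of its own.

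In the protease list, AT2G03390 had intensities from 0.240 to 0.304 with a median of 0.277 after proline, against 0.338 to 0.398 with a median of 0.380 in water. The groups lay apart, and it fell 1.66-fold (log2 -0.73 ± 0.084 SE, adjusted p = 2.67e-05, with adjusted p from 6.87e-06 to 0.0159 over all settings). AT1G68660 had intensities from 0.0946 to 0.155 with a median of 0.122 after proline, against 0.0647 to 0.107 with a median of 0.0758 in water. Its groups overlapped, and it rose 1.59-fold (log2 0.67 ± 0.18 SE, adjusted p = 0.00894), a call that was lost after median scaling (log2 0.36, adjusted p = 0.120), with successive pairs as a random block (adjusted p = 0.0793) and when replicates 5 and 6 were left out of each group (adjusted p = 0.0581). Its adjusted p over all settings ran from 0.00378 to 0.120. SPPA, a signal peptide peptidase, was listed at 0 in 4 proline and all 6 water samples and could not be tested.

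In the list of plastid ribosomal proteins, AT4G01310 had intensities from 0.283 to 0.415 after proline and from 0.261 to 0.388 in water, with a normalized change of -0.21 ± 0.12 SE in log2 units (adjusted p = 0.195). The interval of that change ran from -0.47 to 0.06. AT3G13120 had 2 of 6 proline samples and no water sample listed at 0, and the fit left these 2 out. From the remaining values its log2 change was -0.45 ± 0.42 SE (adjusted p = 0.419, interval from -1.38 to 0.49). It was -0.80 as deposited, -0.99 after median scaling and -4.21 ± 2.4 SE with zeros set to the lowest value of the table, and did not pass in any setting (adjusted p from 0.113 to 0.675). AT1G64510 and AT1G29070 were listed at 0 on all 12 arrays. The median log2 change of these 2 tested genes was -0.33 with the zeros left out, beside -0.118 for all features.

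The translocation list added AT4G38490, with a log2 change of -0.07 ± 0.37 SE (adjusted p = 0.905) from 5 samples above 0 in each group, since replicate 1 of both groups was listed at 0. In this fit without a block its interval ran from -0.89 to 0.76 and ended close to the change of SECE1. Replicate 2 was the highest sample of both groups, at 1.07 after proline and 1.24 in water. With the replicate number as a block the log2 change was -0.07 ± 0.14 SE, so the width of the interval depended on the pairing. The chaperone list added Cpn60beta3, another beta-type subunit of the plastid chaperonin. It had intensities from 0.169 to 0.199 after proline and from 0.157 to 0.222 in water, with a normalized change of -0.12 ± 0.10 SE in log2 units (adjusted p = 0.391) and an interval from -0.35 to 0.11, so a change as large as the -0.31 of Cpn60beta4 lies within it. AT5G55220, also of the chaperone list, was at 0 on all 12 arrays. The probe sequences were not used here, so hybridisation with related genes was not tested.

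Words for these steps were also sought among the gene names and synonyms of all named features, whatever the compartment. They found CCS, a copper chaperone for superoxide dismutase (log2 0.73 ± 0.38 SE, adjusted p = 0.140), and TPP2, tripeptidyl peptidase II (log2 0.13 ± 0.26 SE, adjusted p = 0.710), beside genes already given. In the limma fit CCS passed without proline replicate 3, its lowest sample at 0.0146 (log2 1.09, adjusted p = 6.96e-04). It also passed with replicates 3 and 4 left out of each group (log2 1.07, adjusted p = 0.00446). TPP2 passed with replicates 5 and 6 left out of each group (log2 0.66, adjusted p = 0.0120). Over all settings the adjusted p of CCS ran from 6.96e-04 to 0.699 and that of TPP2 from 0.0120 to 0.988.

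**Figure D4:**
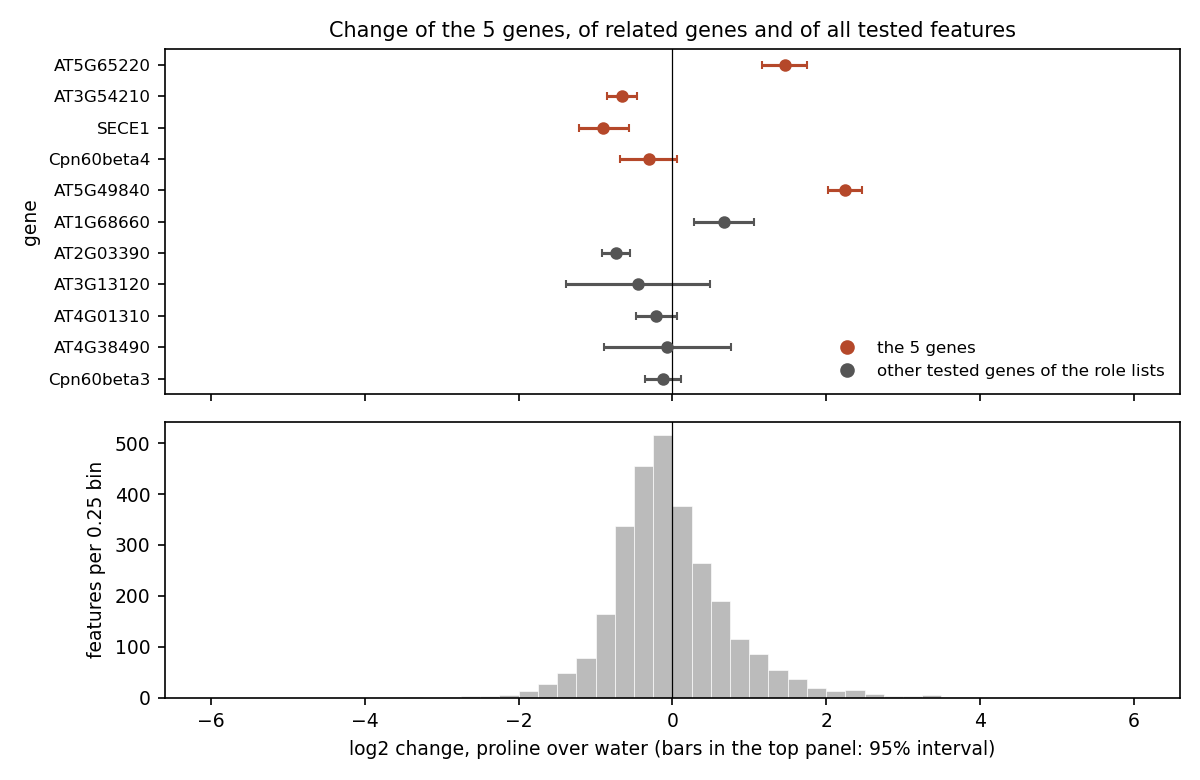
Top, log2 change (proline over water) with its 95% interval for the 5 genes in red and the 6 other tested genes of the locus lists in grey. Bottom, the number of tested features in each step of 0.25 on the same axis. AT5G49840 (2.25) and AT5G65220 (1.46) lie in the thin upper tail, and the other genes lie between -0.90 and 0.67.

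The genes whose pattern over the 12 arrays was most like each of the 5 were sought by Pearson's r among the 532 other named genes above 0 on all of them. The difference between proline and water enters this r, which is given as a description, without a p. AT5G49840 was most like AT1G76450 (r = 0.996), AT4G14380 (0.993) and AT4G18180 (0.992), with log2 changes of 3.69, 1.48 and 4.60, and 42 genes had an r above 0.9. AT5G65220 was most like AT5G40030 (0.977), AT5G06010 (0.975) and AT3G06200 (0.975), and 32 genes had an r above 0.9. The neighbours of both genes thus differed from them, and from each other, in the size of their change.

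AT3G54210 was most like AT4G13680 (0.974), the photosystem II gene PSBY (0.969) and the glycosyl hydrolase gene GH9B12 (0.951), whose log2 changes were -0.43, -0.45 and -1.51. SECE1 was most like AT4G25290 (0.933), AT2G04790 (0.909) and AT4G35660 (0.903), and no other gene had an r above 0.9 with it. Cpn60beta4 had no gene above 0.9, and its nearest were AT3G56130 (0.841), AT5G19540 (0.817) and AT5G36470 (0.801). With the group means removed, these last r were 0.791, 0.794 and 0.798. For the neighbours of the other genes, in the order given, they were mostly further below the r over all arrays. They were 0.77, 0.742 and 0.376 for AT5G49840, and 0.722, 0.584 and 0.719 for AT5G65220. For AT3G54210 they were 0.782, 0.764 and 0.473, and for SECE1 0.64, 0.452 and 0.593. Such deviations also hold what arrays share, since successive replicates and equal replicate numbers resembled each other over all features.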

How the data were processed

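RNA of the 12 samples was measured on arrays, and the authors deposited 1 table of intensity values, linear, never negative and with exact zeros. Background handling and scaling by the authors: not given in the sources used here. Between 453 and 534 features per array were at 0. The number of arrays limits the precision. Zeros were set to missing and log2 values quantile normalized, because column medians ranged over 0.35 and interquartile ranges ran from 1.95 to 2.54. These differences lay between the groups. Interquartile ranges were 2.40 to 2.54 in proline arrays and 1.95 to 2.09 in water arrays. Medians were -2.08 to -1.94 in proline arrays and -2.29 to -2.14 in water arrays. Quantile normalization evened this out, and whether it came from proline or from the arrays was not tested. Features with at least 4 values in each group were tested with limma 3.58.1 (lmFit, eBayes, two-sided) in R 4.3.3, adjusted by Benjamini-Hochberg over all 2861. Random blocks used statmod 1.5.0. The fit was tested on simulated data, which cannot show whether its assumptions hold on these arrays.

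Genes were named through GEO's old platform annotation, for features with 1 gene. Of 692, 690 matched a locus of the TAIR10.1 table. Named are the 5 genes, from each role list up to 4 tested genes with the smallest p, the untested ones, and for each of the 5 the 3 most alike. Members and lists were chosen with earlier results of these data known. Ranges, ratios and averages of successive replicates are descriptions.

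Both groups carry replicate numbers 1 to 6. Over 2674 features, the deviations (sample minus group mean) of proline and water samples of equal number correlated at 0.403, 0.370, 0.255, 0.257, 0.283 and 0.184. The numbers were therefore taken to pair the samples, which rests on these data alone. The main fit did not use this pairing, so the SEs, intervals and adjusted p given are unpaired unless a block is named. Successive replicates of a group also resembled each other (mean correlation 0.206). Alternatives were other scalings, zeros and filters, both kinds of block, averaged replicates, other variance models, and samples or pairs left out.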

Additional observations from a re-analysis of the deposited data

Results flagged for a closer look

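Of 26 groups of 4 to 6 values (the 5 genes and the 8 other tested genes), 3 had a highest or lowest sample whose gap to its neighbour passed Dixon's critical value, where chance gives about 1.3. AT5G65220 had a normalized log2 intensity of 1.30 in water replicate 1, with the other 5 water samples between 0.92 and 1.06. AT4G38490 was at 0.39 in water replicate 2, with the other 4 between -1.39 and -1.15 and replicate 1 listed at 0. The proline samples of this gene ran alike, with replicate 2 at -0.04, the other 4 between -1.42 and -0.97 and replicate 1 listed at 0. CCS was at -5.55 in proline replicate 3, with the others between -3.47 and -3.02.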

How the results depend on the processing

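Over 29 settings the log2 change of AT5G49840 ran from 1.65 to 2.43, of AT5G65220 from 1.28 to 1.65, of AT3G54210 from -0.69 to -0.31, of SECE1 from -0.97 to -0.61 and of Cpn60beta4 from -0.58 to -0.16, with no change of sign. Beyond 1 SD moved AT3G54210 (-0.31 as deposited, -0.51 after median scaling), AT5G49840 (2.43 as deposited, 1.65 with a pseudocount of 0.1) and SECE1 (-0.61 with that pseudocount, which damps dim features). Without 1 sample the ranges were 2.20 to 2.32, 1.38 to 1.53, -0.69 to -0.62, -0.97 to -0.83 and -0.39 to -0.20. The replicate number as a block gave 1360 calls over all features against 1263 and changed no call of a gene named by list or member. Averaging successive replicates gave 661, from fewer samples. Successive pairs as a random block, which keeps all 12 samples, gave 887, with a fitted correlation within pairs of 0.52. The SE of the log2 change was then 0.13 for AT5G49840, 0.16 for AT5G65220, 0.13 for AT3G54210, 0.22 for SECE1 and 0.20 for Cpn60beta4. Each was larger than in the main fit, so the intervals given above are narrower than under this block. With the replicate number as a block these SEs were 0.11, 0.15, 0.078, 0.12 and 0.16. Of the calls, 41.4% were higher, 59.2% as deposited. The count of 2 called list genes was 1 after median scaling, with successive pairs as a random block, and without replicates 5 and 6. Changes of uncalled genes turned sign: AT4G01310 (0.10), AT4G38490 (0.27) and Cpn60beta3 (0) as deposited, AT4G38490 after median scaling (0.06), without proline replicate 3 (0.04) or 4 (0.03) or water replicate 2 (0.26; -0.30 to 0.26 over single samples left out), replicates 1 and 2 (0.02) or 3 and 4 (0.02), AT3G13120 without replicates 1 and 2 (0.16), and TPP2 without replicates 1 and 2 (-0.23) or 3 and 4 (-0.05). The causes were not tested. Signal over background was not given, so how far noise limits dim features is unknown.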
